A study of Mus musculus with 10 samples.

Results

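The genes described here encode the epidermal growth factor (EGF) family: 7 ligands (Areg, Ereg, Hbegf, Tgfa, Egf, Btc and Epgn) and 3 receptors (Egfr, Erbb2 and Erbb3), 10 of the 49585 genes in the deposited count tables. They were chosen by symbol with an earlier result in view, namely that Areg differed between 2 kinds of cultured liver organoid. For the members that comparison is therefore a description: folds and standard errors are given without p-values, and it supports nothing further. The samples come from a mouse model of hepatocellular carcinoma in which the Rb gene family is knocked out in the liver. Cells positive for YFP, which marks Cre activity, were collected by flow cytometry after enzymatic digestion of liver or lesions. The series holds 10 samples in 5 groups of 2, of which the Ck19-derived organoids (n = 2 libraries) and the Sox9-derived organoids (n = 2 libraries) are compared here. Ck19 and Sox9 are proteins of bile duct and progenitor cells. The labels call all samples primary liver cells with no treatment. The genotype of each culture, the promoter driving Cre, the age, the number of animals and the culture medium are not given in the sources used here. Libraries of a group may thus be technical copies, and p-values below measure only the spread between these libraries.

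EGF family ligands are made as membrane-bound precursors and are released by cell-surface proteases, chiefly ADAM17. They bind EGFR or ERBB4 directly. ERBB2 has no known ligand of its own and works as a partner of the other receptors, while ERBB3 has little kinase activity and passes its signal through such partners. Active receptors switch on the RAS, RAF, MEK and ERK chain and the PI3K and AKT chain. ERK in turn induces genes that damp the pathway, such as the Sprouty genes and the dual-specificity phosphatases. In liver, EGFR is abundant on hepatocytes and takes part in regeneration, and EGF is a usual growth factor of biliary organoid cultures.

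Depth was similar in the organoid libraries, from 31883180 to 36606008 fragments assigned to genes. Other library measures differed by group. The share of fragments assigned was 52.1% and 53.5% in the Ck19-derived and 59.7% and 58.4% in the Sox9-derived libraries. Genes detected numbered 27456 and 26608 against 22670 and 23200. The part of these library differences in the results below was not tested. All 8 biliary epithelial markers examined were above 1 CPM (fragment counts scaled to a common library total) in each of these 4 libraries, and Epcam stood between 2101 and 3833 CPM. Of 8 hepatocyte markers, only Alb, Ttr and Hnf4a exceeded 1 CPM in any of them. The 8 mesenchymal and stellate markers summed to between 0.603 and 1.76 CPM, and the 6 endothelial markers to between 0.355 and 2.87 CPM. The 6 myeloid markers summed to 84.9 and 47.4 CPM in the Ck19-derived and to 18.4 and 26.7 CPM in the Sox9-derived libraries. Only Cd68, a lysosomal protein gene, and Csf1r exceeded 1 CPM, and the leukocyte gene Ptprc stood between 0.0305 and 0.188 CPM. The part of that difference in the results below was not tested. Xist, expressed from the inactive X chromosome, had 1923 and 1869 fragments in the Ck19-derived libraries and 1 in each Sox9-derived library, and the Y-linked gene Eif2s3y had 3 and 3 against 3383 and 2615. Sex, animal and culture origin cannot be told apart in any difference below. Bulk RNA also cannot tell fewer expressing cells from less RNA per cell.

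The ligand genes Epgn, Ereg, Areg and Btc lie in this order within 376 kb of chromosome 5 (91027464 to 91402994, GRCm38), with only 3 other annotated genes between them, all of them predicted (Gm19610, Gm23092 and Gm19619). Their RNA levels in the organoids ran from 0 fragments for Epgn to 157 CPM for Areg. The start-site regions of Areg, the member with the clearest difference between the organoid pairs, and of its neighbours Btc and Epgn are shown to compare these linked genes. Each runs from 250 bases before to 50 bases after the start site in RefSeq (GRCm38.p6), on the strand of the gene. Of the 10 members, 7 had such a region that was used here. Capitals mark matches, on either strand, to any of 7 motifs: TATAAA, the AP-1 element TGANTCA, the cyclic AMP response element TGACGTCA, the GC box GGGCGG, the TEAD element GGAATG, the SOX element AACAAT and the E2F element TTTGGCGC.
Areg, chr5:91139349-91139648, plus strand: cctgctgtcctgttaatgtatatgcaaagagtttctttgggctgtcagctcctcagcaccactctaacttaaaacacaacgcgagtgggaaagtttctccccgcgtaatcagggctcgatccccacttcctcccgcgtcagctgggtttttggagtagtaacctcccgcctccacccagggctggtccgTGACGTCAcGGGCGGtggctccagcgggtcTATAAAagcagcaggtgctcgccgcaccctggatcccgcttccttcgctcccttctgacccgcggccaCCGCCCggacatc
Btc, chr5:91402945-91403244, minus strand: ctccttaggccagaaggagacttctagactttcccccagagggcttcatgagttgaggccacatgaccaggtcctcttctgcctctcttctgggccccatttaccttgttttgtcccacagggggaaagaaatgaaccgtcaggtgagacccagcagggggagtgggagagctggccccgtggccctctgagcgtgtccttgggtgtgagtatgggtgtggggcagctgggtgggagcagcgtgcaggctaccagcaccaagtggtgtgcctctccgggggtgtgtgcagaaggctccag
Epgn, chr5:91027267-91027566, plus strand: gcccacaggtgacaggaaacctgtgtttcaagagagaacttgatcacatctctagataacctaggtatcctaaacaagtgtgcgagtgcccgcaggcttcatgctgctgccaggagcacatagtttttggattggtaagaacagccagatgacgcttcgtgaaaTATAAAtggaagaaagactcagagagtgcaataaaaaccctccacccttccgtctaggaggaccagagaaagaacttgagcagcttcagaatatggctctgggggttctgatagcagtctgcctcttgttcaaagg
The Areg region held a full cyclic AMP response element 61 to 54 bases before the start site, a GC box from -52 to -47, TATAAA from -31 to -26 and a second GC box, reading CCGCCC on this strand, from 38 to 43. No matches overlapped. Of 32851 mouse start-site regions of the same length, 1.79% held TGACGTCA, 13.6% TATAAA and 35.7% GGGCGG. The Epgn region held TATAAA from -86 to -81 and no other match, and the Btc region none. In the remaining regions the matches were GC boxes in Tgfa (2) and Egfr (1) and a TEAD element in Erbb2 (1), with none in Egf. The AP-1 element was found in 7.81% of all regions, the TEAD element in 14.7%, the SOX element in 10.7% and the E2F element in 0.514%. These matches describe the letters in the window, not bound sites.

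Across the family, the mean of every member with enough fragments to be fitted was lower in the Sox9-derived than in the Ck19-derived organoids, most of all for Areg, Egf and Ereg and least for Erbb2. Of the 10 members 9 passed the count filter, and all 9 had a fitted log2 fold change below 0, although Erbb2 and Erbb3 were above 0 without Ck19-derived replicate 1 and Erbb2 also without Sox9-derived replicate 1. The median was -2.17 over the 6 fitted ligands and -0.46 over the 3 receptors, beside 0.01 over all 16653 genes tested. Egf, with 2 and 4 fragments in the Sox9-derived libraries, and Ereg, with 64 and 9, passed the filter only through the Ck19-derived pair. A fold below 0 was thus favoured in advance for both, and the ligand median includes them and Areg. In 7 of the 9 the CPM ranges of the groups did not overlap, with the Sox9-derived libraries below. Such a separation, downward, was seen in 26.3% of all tested genes, and upward in 24.6%. The edgeR quasi-likelihood test called 1 of the 9, Areg, beside 0.570% of all tested genes (0.384% lower and 0.186% higher). Since Areg was selected on this very comparison, the call is printed only beside that background and nothing is read from it.

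**Figure D1:**
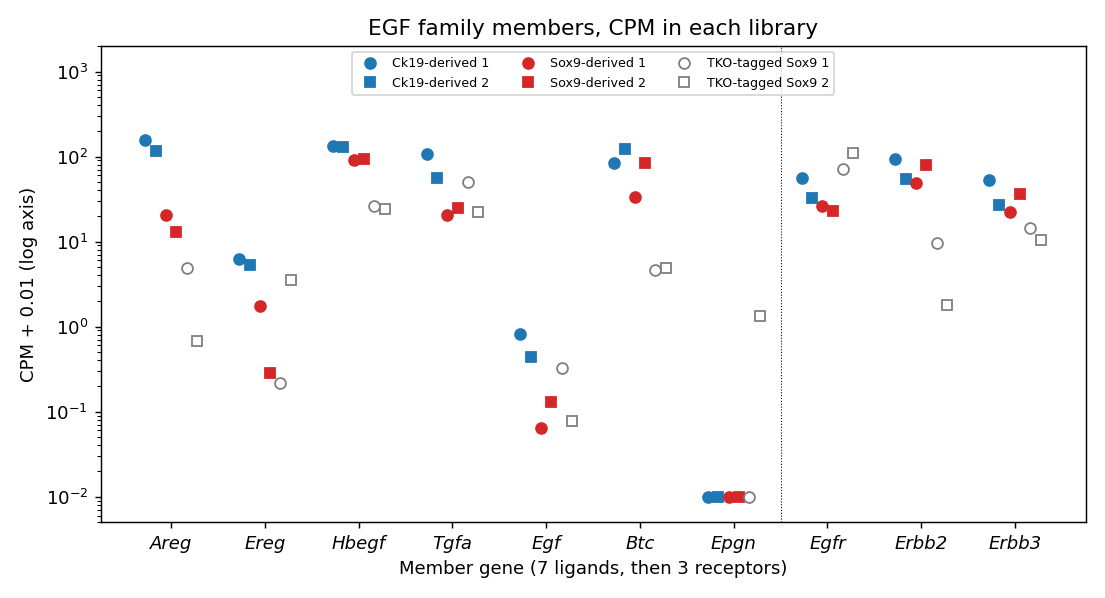
CPM of the 10 members in each library on a log axis, with 0.01 added so that 0 can be drawn. Filled points are the Ck19-derived (blue) and Sox9-derived (red) organoid libraries, open points the libraries with a TKO tag in their column names, and circles and squares are replicates 1 and 2. The red points lie below the blue ones for Areg, Ereg, Hbegf, Tgfa, Egf and Egfr, barely so for Btc, and are mixed with them for Erbb2 and Erbb3.

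Areg encodes amphiregulin, an EGFR ligand shed by ADAM17 (ENSMUSG00000029378, chromosome 5, 91139599 to 91148432). It stood at 157 and 116 CPM in the Ck19-derived libraries. The Sox9-derived libraries had 20.4 and 13.0 CPM. Both Sox9-derived values were far below both Ck19-derived ones. The means were 137 ± 29.0 and 16.7 ± 5.24 CPM (SD, n = 2 each), and the fitted log2 fold change was -3.03 (SE 0.32), or 8.18-fold lower. Without any 1 library it ran from -3.37 to -2.75. The gene shares no exon bases with another gene, so the unstranded counting adds no overlap here.

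Ereg encodes epiregulin, a ligand of EGFR and ERBB4 (ENSMUSG00000029377, chromosome 5, 91074622 to 91093646). It was much rarer, at 6.15 and 5.31 CPM in the Ck19-derived and 1.75 and 0.271 CPM in the Sox9-derived libraries. The groups did not overlap, but the Sox9-derived libraries differed 6.44-fold from each other, and the lower of them had 9 fragments. The fit gave 5.66-fold lower RNA (SE 0.94 on the log2 scale). The log2 fold change was -4.36 without Sox9-derived replicate 1 and -1.71 without Sox9-derived replicate 2. A predicted gene, Gm19610, overlaps 3.42% of its exon bases.

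Tgfa encodes transforming growth factor alpha, an EGFR ligand (ENSMUSG00000029999, chromosome 6, 86195223 to 86275719). Its values were 107 and 55.3 CPM in the Ck19-derived and 20.5 and 24.9 CPM in the Sox9-derived libraries. The groups did not overlap, and the wider spread was in the Ck19-derived pair, whose libraries differed 1.94-fold. The log2 fold change was -1.84 (SE 0.38), with -1.28 without Ck19-derived replicate 1 and -2.27 without Ck19-derived replicate 2.

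Hbegf encodes heparin-binding EGF-like growth factor, which binds EGFR and ERBB4 (ENSMUSG00000024486, chromosome 18, 36504929 to 36515805). It showed the smallest spread of the family, with 133 and 131 CPM in the Ck19-derived and 91.3 and 92.4 CPM in the Sox9-derived libraries. The libraries of each pair differed 1.01-fold, and the groups lay apart by 1.44-fold (log2 fold change -0.52, SE 0.16). Leaving out any 1 library moved this only between -0.56 and -0.49.

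Btc encodes betacellulin, which also binds EGFR and ERBB4 (ENSMUSG00000082361, chromosome 5, 91357261 to 91402994). The Ck19-derived organoids had 84.9 and 122 CPM, while the Sox9-derived organoids had 33.1 and 84.6 CPM. The groups only just failed to overlap, since Sox9-derived replicate 2 lay beside Ck19-derived replicate 1. The log2 fold change of -0.80 (SE 0.49) became -1.64 without Sox9-derived replicate 2 and -0.26 without Sox9-derived replicate 1, so the size of this difference depended on 1 library.

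The remaining ligands were at or near the limit of detection. Egf, which encodes the founding ligand (ENSMUSG00000028017, chromosome 3, 129677565 to 129755316), had 26 and 14 fragments in the Ck19-derived and 2 and 4 in the Sox9-derived libraries. This is 0.816 and 0.428 CPM against 0.0546 and 0.121 CPM (log2 fold change -2.78, SE 0.88), and 9.82% of its exon bases are shared with 6330410L21Rik and Gm42697. Epgn, which encodes epigen (ENSMUSG00000035020, chromosome 5, 91027464 to 91035215), had 0 fragments in all 4 organoid libraries. A count of 0 allows up to 3 fragments, or 0.0820 to 0.0941 CPM depending on the library. Epgn was not fitted and has no fold change.

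**Figure D2:**
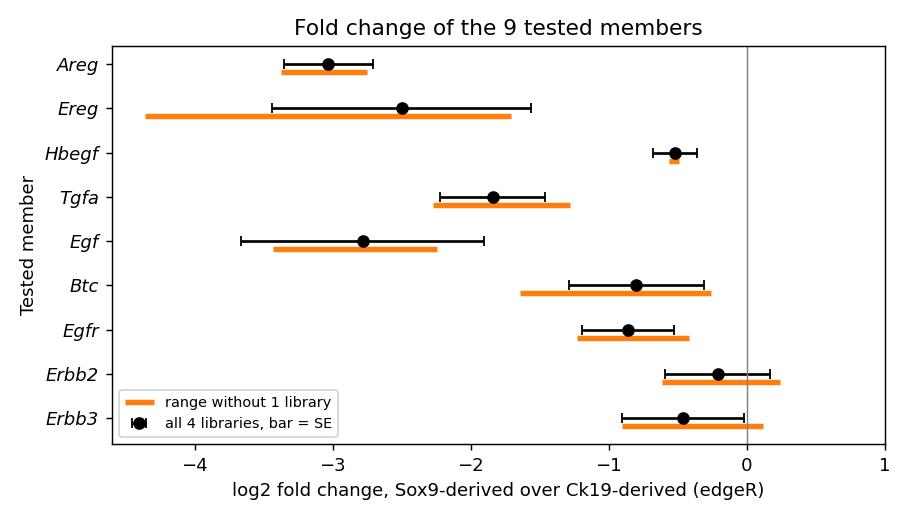
Log2 fold change (Sox9-derived over Ck19-derived, edgeR) of the 9 fitted members. Black points and bars give the value and SE with all 4 libraries, and orange lines give the range when each library in turn is left out. Areg and Hbegf keep a narrow range, Ereg spans -4.36 to -1.71, and the ranges of Erbb2 and Erbb3 cross 0.

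Among the receptors, Egfr (ENSMUSG00000020122, chromosome 11, 16752203 to 16918158) stood at 55.9 and 32.9 CPM in the Ck19-derived and 26.2 and 22.7 CPM in the Sox9-derived libraries. The groups did not overlap, and the log2 fold change was -0.86 (SE 0.33), with -0.42 without Ck19-derived replicate 1. Erbb2 (ENSMUSG00000062312, chromosome 11, 98412470 to 98437716) stood at 94.7 and 55.1 CPM and at 49.4 and 79.9 CPM in the same order. Its groups overlapped widely, with a log2 fold change of -0.21 (SE 0.38) that ran from -0.61 to 0.24 without 1 library. Erbb3 (ENSMUSG00000018166, chromosome 10, 128567523 to 128589652) was found at 53.0 and 26.9 CPM and at 21.99 and 36.0 CPM. These groups overlapped as well (log2 fold change -0.46, SE 0.44, from -0.90 to 0.12 without 1 library). Ck19-derived replicate 1 was the highest of the 4 libraries for all 3 receptors, as for every fitted ligand except Btc (8 of 9 members).

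To compare levels between genes, CPM was divided by the exon length in kilobases, giving FPKM (a count scaled for depth and for length). In the Ck19-derived organoids Areg was the leading ligand at 112 ± 23.8 FPKM (SD, n = 2), followed by Hbegf at 55.6 ± 0.490, Btc at 22.8 ± 5.73, Tgfa at 12.5 ± 5.67, Ereg at 1.39 ± 0.143 and Egf at 0.0551 ± 0.0243 FPKM. No neighbours in that order overlapped in their library values. In the Sox9-derived organoids Hbegf led at 38.7 ± 0.307 FPKM, above Areg at 13.8 ± 4.31 and Btc at 13.0 ± 8.06 FPKM, whose libraries overlapped. Tgfa at 3.50 ± 0.479, Ereg at 0.245 ± 0.253 and Egf at 0.00777 ± 0.00414 FPKM followed without overlap. The place of Areg in these orders follows from the difference it was selected on.

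Ratios and shares within a library restate the same values, Areg's included, and are given as a description. Areg RNA per length was 2.31 and 1.73 times that of Hbegf in the Ck19-derived libraries, and 0.437 and 0.276 times in the Sox9-derived libraries. Summed over the 7 ligands, the level per length was 222 and 188 FPKM in the Ck19-derived and 66.2 and 72.3 FPKM in the Sox9-derived libraries. Areg made up 58.2% and 51.0% of that sum in the former and 25.4% and 14.8% in the latter. Hbegf made up 25.2% and 29.4% against 58.1% and 53.9%. The share of Btc ran from 8.45% to 25.9% with no order between the groups, since the values were 8.45% and 14.3% against 11.1% and 25.9%.

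**Figure D3:**
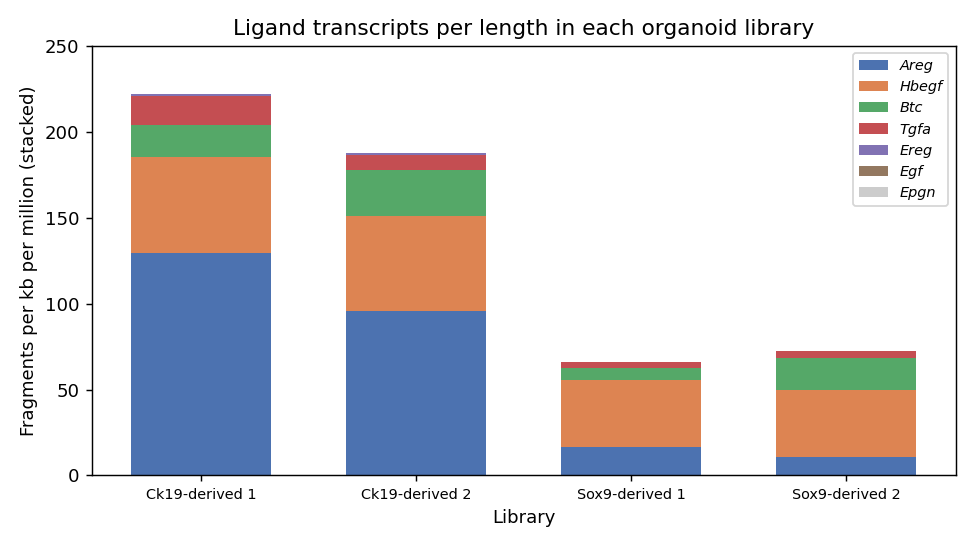
Level per length (FPKM) of the 7 ligands in the 4 organoid libraries, stacked from 0. The Areg block shrinks from 129 and 95.7 FPKM in the Ck19-derived libraries to 16.8 and 10.7 FPKM in the Sox9-derived libraries. The Hbegf block is smaller as well, at 56.0 and 55.3 FPKM against 38.5 and 38.9 FPKM in the same order.

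The receptors kept one order of levels per length in all 4 organoid libraries, Erbb2 above Erbb3 above Egfr. Erbb2 stood at 14.4 ± 5.37 FPKM in the Ck19-derived and 12.4 ± 4.14 FPKM in the Sox9-derived organoids, Erbb3 at 6.64 ± 3.07 and 4.82 ± 1.64 FPKM, and Egfr at 3.92 ± 1.43 and 2.16 ± 0.218 FPKM. Across the Ck19-derived libraries the ranges of Erbb3 and Egfr overlapped. Erbb2 made up 57.0% and 58.9% of the summed receptor level in the Ck19-derived and 61.4% and 65.8% in the Sox9-derived libraries. Egfr made up 15.5% and 16.2% against 15.0% and 8.59%.

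Other genes of the pathway were taken from 6 lists with 82 genes, of which 76 were tested. Genes that ERK is known to induce, many of which feed back on the pathway, were mostly lower in the Sox9-derived organoids, while adaptors, RAS and RAF kinases, proteases and receptor inhibitors lay on both sides of 0. Of 17 tested ERK feedback and target genes, 16 had a log2 fold change below 0 and 15 did not overlap between groups, with the Sox9-derived libraries below, beside 26.3% of all genes. The list's median, an analysis added after the data were seen, was -1.78, beside 0.01 over all genes. Spry4 of this list, with 30 and 2 fragments in the Sox9-derived libraries, passed the count filter only through the Ck19-derived pair. The edgeR quasi-likelihood test with Benjamini-Hochberg adjustment called 1 of the 17 lower and 0 higher, beside 0.57% of all tested genes called. In the other 5 lists it called 0 of 59. An unadjusted edgeR p under 0.05 was found for 12 of these 59, beside 2792 of all 16653 genes. DESeq2, which called 9.08% of all genes, called 9 of the 17 lower and 0 higher, and 7 of the other 59. With either Ck19-derived library left out, edgeR made 0 calls over all genes, with the ERK list's median at -1.85 and -1.67. The list's median was -2.18 without Sox9-derived replicate 1 and -1.43 without Sox9-derived replicate 2.

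The called gene was Phlda1, a pleckstrin homology-like protein gene induced by growth factors. Its values were 68.9 and 64.8 CPM in the Ck19-derived and 17.4 and 13.9 CPM in the Sox9-derived libraries, so it fell 4.27-fold (edgeR adjusted p = 0.0473, log2 fold change -2.09 with SE 0.23). Its log2 fold change was -2.04 and -2.17 without Ck19-derived replicates 1 and 2, and -2.24 and -1.95 without Sox9-derived replicates 1 and 2. Each of these fits leaves 1 library in a group and holds no spread of that group, so their p-values are not given. Dusp6, a phosphatase that inactivates ERK, stood at 207 and 192 CPM against 48.0 and 13.9 CPM (log2 fold change -2.69, SE 0.60, adjusted p = 0.136 by edgeR). Dusp4, a related phosphatase, stood at 32.8 and 17.4 CPM against 4.23 and 1.99 CPM (log2 fold change -3.01, SE 0.56, adjusted p = 0.108 by edgeR). Etv5, an ETS transcription factor gene downstream of ERK, was at 19.1 and 20.5 CPM against 7.08 and 0.452 CPM (edgeR adjusted p = 0.383). The exception in sign was the immediate early gene Egr1, at 50.2 and 49.0 CPM against 61.6 and 170 CPM (edgeR adjusted p = 0.315), which was named after its values were seen. In the Sox9-derived pair 14 of the 17 genes were lower in replicate 2 than in replicate 1, beside 50.4% of all tested genes, and 6 were more than 3-fold lower, beside 8.39%. In the Ck19-derived pair 10 of the 17 were lower in replicate 2, beside 48.9% of all tested genes. Of the 9 fitted members, 3 (Areg, Ereg and Egfr) were lower in Sox9-derived replicate 2 than in Sox9-derived replicate 1, and the others were higher.

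**Figure D4:**
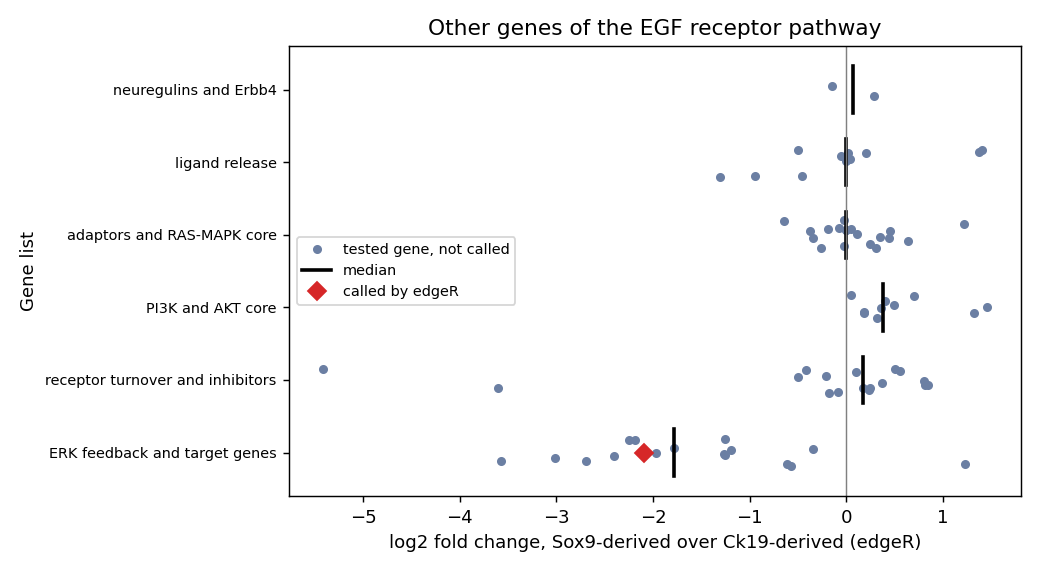
Log2 fold change (Sox9-derived over Ck19-derived, edgeR) of the 76 tested genes in 6 pathway lists, 1 point a gene, with black bars at list medians and a red diamond for the gene called by edgeR. The ERK feedback and target genes have a median of -1.78, while the other medians lie between 0.00 and 0.38.

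Ligand release genes, which encode the proteases that shed the ligands and their partners, lay on both sides of 0. Of 11 tested, 5 were below and 6 above 0 (median 0.00). None was called by edgeR, and DESeq2 called Timp3 higher and Rhbdl2 lower. Timp3, an inhibitor of ADAM17, stood at 67.8 and 89.9 CPM against 261 and 147 CPM (log2 fold change 1.37, SE 0.33, adjusted p = 0.151 by edgeR). Rhbdl2, a rhomboid protease gene, stood at 25.5 and 26.8 CPM against 14.2 and 6.997 CPM (edgeR adjusted p = 0.217). Adam8 and Rhbdf2, the latter needed for the maturation of ADAM17, overlapped between groups (edgeR adjusted p = 0.615 and 0.660). Adam17 itself differed by a log2 fold change of -0.05 (SE 0.21), with edgeR adjusted p = 0.928; it was named after its value was seen, for its role.

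Among the adaptors and the RAS, RAF, MEK and ERK genes, all 19 were tested and neither edgeR nor DESeq2 called any, with a median of 0.00. Map2k1, which encodes the ERK kinase MEK1, stood at 213 and 156 CPM against 122 and 114 CPM (log2 fold change -0.64, SE 0.22, adjusted p = 0.246 by edgeR). Nras, Araf and Ptpn11 had log2 fold changes of 0.45, -0.38 and 0.35 (edgeR adjusted p = 0.316, 0.316 and 0.495). All 10 tested PI3K and AKT genes were above 0, with a median of 0.38; edgeR called none, and DESeq2 called 2 higher, Pik3r1 among them. Pik3r1, a regulatory subunit of PI3K, stood at 6.71 and 13.4 CPM against 27.1 and 27.9 CPM (edgeR adjusted p = 0.181). Akt2 and Pik3cb had log2 fold changes of 0.49 and 0.40 (edgeR adjusted p = 0.278 and 0.626).

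Of the genes for receptor turnover and inhibition, 7 of 17 were below and 10 above 0, with a median of 0.17. None was called by edgeR, and DESeq2 called 2 higher (Lrig1 and Ptpn1) and 1 lower (Lrig3, a relative of Lrig1, named for that call). Lrig3 stood at 2.20 and 1.83 CPM in the Ck19-derived libraries and had 1 and 2 fragments in the Sox9-derived libraries (edgeR adjusted p = 0.0833). Those counts lie within the floor of 3 fragments, and the gene passed the count filter only through the Ck19-derived pair. Lrig1, which promotes the degradation of ERBB receptors, stood at 20.0 and 19.2 CPM in the Ck19-derived and 34.9 and 35.7 CPM in the Sox9-derived libraries (log2 fold change 0.85, SE 0.22, adjusted p = 0.162 by edgeR). Ptpn1, a tyrosine phosphatase gene, stood at 50.4 and 48.3 CPM against 89.9 and 82.7 CPM (edgeR adjusted p = 0.128), and Socs5 had a log2 fold change of 0.82 (edgeR adjusted p = 0.296). Tns4, a tensin gene, was at 28.8 and 37.5 CPM against 0 and 5.43 CPM (edgeR adjusted p = 0.383). Like Lrig3, Tns4 passed the count filter only through the Ck19-derived pair, so a fold below 0 was favoured in advance for both. Its log2 fold change of -3.60 (SE 1.75) became -2.59 without Sox9-derived replicate 1 and -13.13 without Sox9-derived replicate 2. Of the neuregulins, the ligands of ERBB3 and ERBB4, Nrg1 and Nrg4 could be tested. Nrg1 stood at 19.0 and 14.6 CPM against 22.2 and 8.17 CPM (edgeR adjusted p = 0.917). Nrg4 stood at 2.73 and 2.57 CPM against 0.410 and 6.03 CPM, so its groups overlapped (edgeR adjusted p = 0.931). Nrg2, Nrg3 and the receptor gene Erbb4 were below the count filter, with Erbb4 at 0 to 2 fragments a library.

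By distance between centred log2(CPM + 1) profiles over the 4 organoid libraries, genes most like Areg among the 8877 whose mean reached 10 CPM were Irgm1 (distance 0.403), Prelid2 (0.446), Ptprr (0.451) and Dusp4 (0.470). Of the family, Ereg was nearest to Areg at 1.2, with 84 of those genes nearer, then Tgfa at 1.44 with 134 nearer. A profile over 4 libraries holds little beyond the difference between the groups.

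A further pair of libraries has Sox9, a TKO tag and the numbers 1 and 2 in its column names, and could also be read as the Sox9-derived samples, since no sample label carries the tag. Their RNA went against an organoid label. The hepatocyte gene Alb had 21740 and 13160 CPM, the biliary keratin gene Krt19 had 0.619 and 1.61 CPM, all 8 hepatocyte markers exceeded 1 CPM in both, and the myeloid markers summed to 752 and 678 CPM. They are therefore described only beside the organoids, and a fit with them serves only as an alternative. In this pair Egfr was the leading receptor, at 71.6 and 110 CPM, and made up 59.8% and 82.3% of the summed receptor level per length, above its share in every organoid library. Erbb2 stood at 9.63 and 1.79 CPM and Erbb3 at 14.4 and 10.6 CPM. Hbegf, at 26.4 and 24.4 CPM, made up 46.3% and 60.8% of the summed ligand level per length, and Tgfa, at 50.1 and 22.02 CPM, made up 32.2% and 20.1%. Areg was at 4.92 and 0.670 CPM, below all 4 organoid libraries, as was Btc at 4.62 and 4.83 CPM. The neighbours Ereg and Epgn were both higher in replicate 2, with Ereg at 0.206 and 3.57 CPM and Epgn at 0 and 78 fragments.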

How the data were processed

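Raw fragment counts per gene were deposited by the authors, made per the file headers with featureCounts 1.5.0-p3 on Ensembl release 87 (GRCm38), for pairs with both ends mapped at mapping quality 10 or more, without strand. Reads of near-identical genes are thus lost, and overlapping genes on opposite strands cannot be told apart. STAR 2.5.4b is listed per the submitters' processing notes. The deposited counts were neither normalized nor pooled. Columns were tied to samples by name. Another 4, which no sample label names, stayed out, and 6 samples of 3 groups were not analysed here. The members, lists and rule for named genes were chosen with earlier results of these data known.

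CPM uses library totals over all 49585 genes. Symbols came from GENCODE M21 (49326 IDs matched). The 4 organoid libraries were fitted with edgeR 4.0.16 (filterByExpr, minimum count 10; TMM factors 0.992 to 1.01; quasi-likelihood test; R 4.3.3; 2 residual degrees of freedom; adjusted p threshold 0.05, two-sided) across all 16653 genes, after a test on simulated data. DESeq2 1.42.0, other settings and leaving out each library were alternatives. From each pathway list the called genes were named, then those with the largest log2 fold changes at a mean of 10 CPM or more, up to 4. The 5 genes nearest to Areg in profile were to be named as well. A few genes that these rules name are not reported here. The floor (3 fragments) accounts for counting error alone.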

Additional observations from a re-analysis of the deposited data

Results flagged for a closer look

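Epgn had 78 fragments (1.31 CPM) in replicate 2 of the TKO-tagged Sox9 libraries, which no comparison above uses, and 0 in replicate 1 and in all 4 organoid libraries. It was picked out because it exceeds the 3 fragments (0.0503 CPM in that library) that a count of 0 allows. Why 1 library of the pair held it was not tested.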

How the results depend on the processing

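The number of genes called was 95 with all 4 libraries, 97 with relative log expression factors, 1512 with DESeq2, 506 without the count filter, 5190 with the TKO-tagged Sox9 libraries in place of the untagged ones, and from 0 to 1394 without 1 library (0 without either Ck19-derived library, where 1692 and 1611 genes had an unadjusted p under 0.05). The pathway genes called numbered 1, 1, 16, 6, 24 and from 0 to 16 in the same order. A fit without 1 library leaves 1 library in a group, so its count of calls holds no spread of that group. With the replicate number as a block, edgeR called 0 genes and 0 pathway genes (2665 genes at an unadjusted p under 0.05), and the adjusted p of Phlda1 was 0.105. The numbers were not shown to pair the samples (correlation of deviations 0.0583 over 2 pairs). The log2 fold change of Areg was -4.84 with the TKO-tagged libraries, which carry hepatocyte markers, and moved by less than the spread between replicates otherwise. With those libraries the log2 fold change of Egfr was 1.78. Areg and Phlda1 kept their sign in every setting run. Of the pathway genes picked by the naming rule and not called by edgeR, 6 changed sign with the TKO-tagged libraries. Timp3 was then at -1.17, Socs5 at -1.94, Dusp4 at 0.12, Araf at 0.11, Nrg1 at 1.81 and Rhbdf2 at 0.62. Egr1, Adam17, Nrg4 and Lrig3, named on other grounds, were not followed across settings. Rhbdf2 was also at 0.37 and Nrg1 at 0.06 without Ck19-derived replicate 1, and Nrg1 at 0.39 without Sox9-derived replicate 2. Of the calls 67.4% were lower, and 57.1% with DESeq2. The ERK list's median ran from -2.18 to -1.37, an analysis added after the data were seen. Exon overlaps could not be recounted from the files. With 2 libraries a group, and 2 to 26 fragments in Egf, small differences were not detectable.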
